A study of Mus musculus with 2 samples.

Results

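Collagens are the proteins of the extracellular matrix that wind 3 chains into a rope-like helix, and the family is encoded in the mouse by many genes with the symbol form Col, a type number and a chain number. The members described here are the genes of the deposited gene tables whose Ensembl identifier carries such a symbol in the GENCODE annotation: 44 genes of the 42462 with a symbol, among them 21474 protein-coding genes. They were measured by total RNA-seq in the facial prominence, the embryonic tissue that forms the jaws, palate and nose, of B6NCrl mice on day 14.5 of embryonic life. The series has 1 group of 2 biological replicates, replicate 1 and replicate 2, and no treatment, genotype or second stage. Each library was made from 10.0 ng of RNA of a single embryo's face, from a different pregnant mouse on a different day, although another label calls the sex of each sample pooled.

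Each collagen chain has stretches in which glycine recurs at every 3rd amino acid, the Gly-X-Y repeat, and 3 such chains join as equal or unequal partners. Fibrillar collagens keep the repeat nearly unbroken and assemble into the cross-striated fibrils of skin, bone, tendon and cartilage. Network-forming collagens build basement membranes, hexagonal lattices, beaded filaments and anchoring fibrils. FACITs (fibril-associated collagens with interrupted triple helices) sit on the surface of fibrils, transmembrane collagens stay anchored in the cell membrane, and multiplexins carry endostatin-like ends near basement membranes. In the fetal face these proteins belong to loose mesenchyme, to the cartilage and membrane bone of the skull, to tendons, vessels and the skin.

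The repeat that defines the family, and its interruption, can be read from 60 coding bases of a fibrillar and of a basement membrane chain, shown in frame with each glycine codon in capitals. The Col1a1 bases begin the longest repeat of the gene (mm10, chr11:94939451-94939909, plus strand, joined over introns), and the Col4a1 bases cross the end of its longest run (mm10, chr8:11244519-11245066, minus strand, likewise joined).
Col1a1 coding: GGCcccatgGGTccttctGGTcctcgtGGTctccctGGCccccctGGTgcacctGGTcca
Col4a1 coding: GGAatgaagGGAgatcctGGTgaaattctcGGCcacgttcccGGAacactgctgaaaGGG
In Col1a1 glycine codons recurred at one fixed spacing throughout, and in Col4a1 the spacing was lost part of the way along.

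The other sequence that the results turn on is the alternative second exon of Col2a1, the chain of cartilage type II collagen (mm10, chr15:98000403-98000606, minus strand, 204 bases, within the coding sequence). It is shown in capitals between the last 20 bases of the first exon and the first 20 bases of the following one, above the junction that skips it.
Col2a1 with exon 2: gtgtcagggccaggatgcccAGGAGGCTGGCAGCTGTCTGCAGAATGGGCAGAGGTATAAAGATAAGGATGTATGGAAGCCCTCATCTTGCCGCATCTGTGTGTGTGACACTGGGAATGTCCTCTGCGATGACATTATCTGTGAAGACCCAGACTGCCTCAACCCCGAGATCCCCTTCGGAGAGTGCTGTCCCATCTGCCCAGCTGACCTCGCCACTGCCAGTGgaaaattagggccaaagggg
Col2a1 without exon 2: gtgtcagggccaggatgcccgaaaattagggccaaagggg
The exon keeps the reading frame and holds 10 cysteine codons, the cysteine-rich domain that is known to distinguish the form of cartilage precursors (type IIA) from that of mature cartilage (type IIB).

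The libraries held 30919488 expected counts, the authors' estimate of reads per gene, in replicate 1 and 37738872 in replicate 2. Added spike-in RNAs and other sequences that are no mouse gene took 3.22% and 5.43% of these counts. Levels are given in TPM (transcript abundance per length, scaled to the same total in each library), where a count of 0 at 2000 bases allows up to 0.0761 TPM in replicate 1 and 0.0589 in replicate 2. This limit and the intervals given later cover counting error only. Errors are SDs over both libraries (n = 2 throughout). The smallest two-sided p that an exact sign permutation of 2 samples allows is 0.5, which is no test between the embryos. With a single library per embryo no such test is possible, and a fold rule stands in for it. All 9 listed markers of facial mesenchyme were at 1 TPM or more in both libraries, with summed levels of 351.9 TPM in replicate 1 and 307.1 in replicate 2, and none of the defining genes of the labelled tissue was at 0.

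Of the 44 collagen genes, 39 (88.6%) reached 1 TPM in both embryos, where 63.9% of all protein-coding genes did. A mean of 100 TPM or more was reached by 14 collagen genes (31.8%), against 6.54% of protein-coding genes. No member had a count of 0 in either library. The members below 1 TPM in at least 1 embryo were the basement membrane chains Col4a3 and Col4a4, the beaded filament chains Col6a4 and Col6a5, and Col28a1. Together the family made up 1.396% of the protein-coding TPM in replicate 1 and 1.515% in replicate 2, a mean of 1.46% ± 0.0840. As a share of protein-coding counts, which grow with transcript length, it made up 3.891% in replicate 1 and 4.425% in replicate 2.

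**Figure D1:**
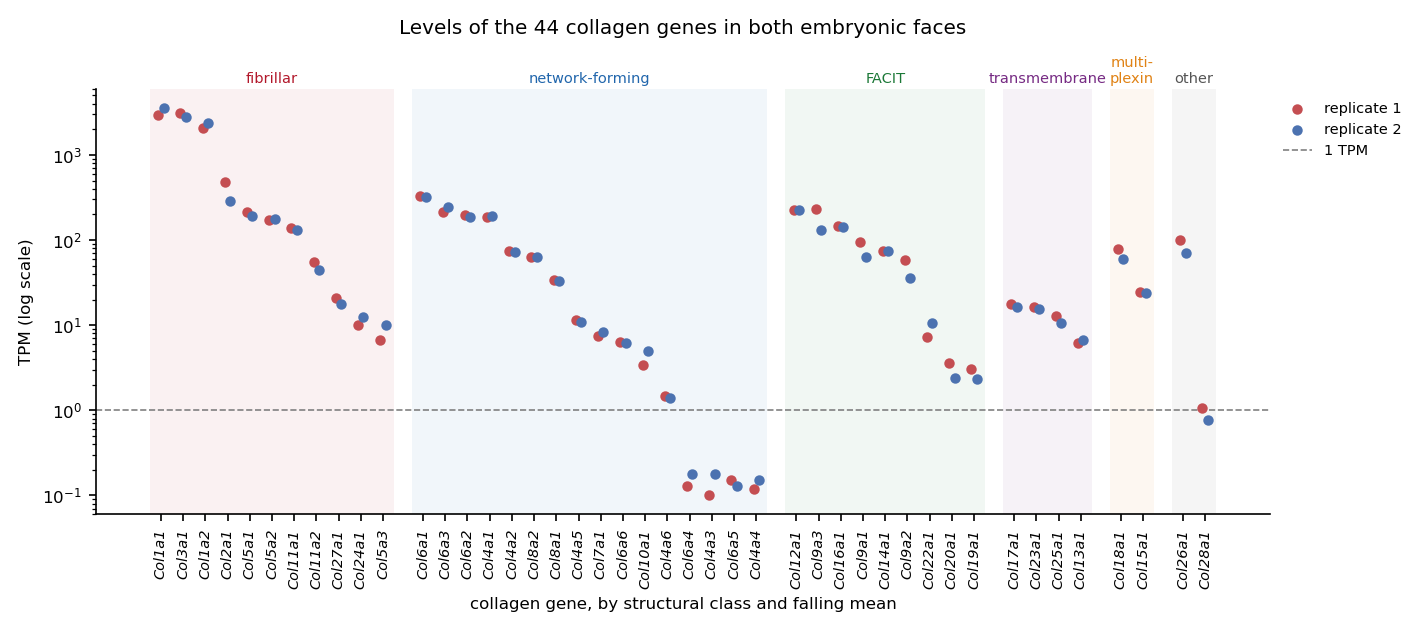
TPM (log axis) of each of the 44 collagen genes in replicate 1 and replicate 2, 1 point per library, grouped by structural class and ordered by mean level, with a dashed line at 1 TPM. The genes of type I and type III collagen lie above 2000 TPM in both embryos, and 4 network-forming genes lie below 0.2 TPM.

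Fibrillar collagens accounted for most of the family's RNA. Their 11 genes, all above 1 TPM in both embryos, summed to 9184 TPM in replicate 1 and 9649 in replicate 2, which was 81.5% ± 1.5 of the collagen TPM. Col1a1, Col1a2 and Col3a1 alone gave 70.84% of the collagen TPM in replicate 1 and 75.15% in replicate 2. Network-forming collagens gave 9.83% ± 0.0399, FACITs 6.65% ± 1.09, multiplexins 0.804% ± 0.134, transmembrane collagens 0.441% ± 0.0306, and Col26a1 with Col28a1 0.749% ± 0.201. These are shares of RNA in a mixed tissue, in which fewer cells of a type and less RNA per cell cannot be told apart.

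Col1a1 and Col1a2 encode the chains of type I collagen, the main fibre of bone, skin and tendon. Col1a1 (mm10, chr11:94936224-94953042, plus strand) had 2955.08 TPM in replicate 1 and 3597.64 in replicate 2, and ranked 13th among the protein-coding genes by mean level. Col1a2 (chr6:4504814-4541544, plus strand) had 2048.69 TPM in replicate 1 and 2358.38 in replicate 2. Both were lower in replicate 1 than in replicate 2, by log2 ratios of -0.28 and -0.20. Type I collagen is mostly a trimer of a pair of Col1a1 chains with 1 Col1a2 chain, and the TPM of Col1a1 over that of Col1a2 was 1.44 in replicate 1 and 1.53 in replicate 2 (mean 1.48 ± 0.0587).

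Col3a1 (chr1:45311538-45349706, plus strand), the chain of type III collagen of elastic connective tissue and vessel walls, had 3080.32 TPM in replicate 1 and 2823.98 in replicate 2. By gene TPM it stood above Col1a1 in replicate 1 and below it in replicate 2, with ratios to Col1a1 of 1.04 and 0.785. A partial transcript model of 737 bases held 28.21% of the Col3a1 TPM in replicate 1 and 29.2% in replicate 2. Counting complete coding transcripts alone, the ratio of Col3a1 to Col1a1 was 0.747 in replicate 1 and 0.552 in replicate 2, so that Col1a1 was the higher in both embryos.

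The minor fibrillar chains of type V and type XI collagen, which are known to start fibrils and limit their width, formed the next layer. Col5a1 had 212.36 TPM in replicate 1 and 192.76 in replicate 2, and Col5a2 had 172.11 and 175.60 TPM. Their ratio was 1.23 in replicate 1 and 1.10 in replicate 2, where the common type V trimer holds a pair of Col5a1 chains and 1 Col5a2 chain. Col5a3, the remaining type V chain, was the lowest fibrillar gene with 6.75 TPM in replicate 1 and 10.07 in replicate 2. Col11a1 had 137.59 TPM in replicate 1 and 130.65 in replicate 2, and Col11a2 had 55.43 and 44.91 TPM. Col11a1 exceeded Col11a2 by 2.48 times in replicate 1 and 2.91 times in replicate 2, and by 1.61 and 1.65 times over complete coding transcripts alone. A Col11a1 model of 2570 bases that is annotated for nonsense-mediated decay held 43.08% of its TPM in replicate 1 and 45.51% in replicate 2.

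Col2a1 (chr15:97975602-98004695, minus strand) was the highest of the cartilage collagens, with 484.24 TPM in replicate 1 and 284.66 in replicate 2. Its level was 0.164 of that of Col1a1 in replicate 1 and 0.0791 in replicate 2. Col24a1 and Col27a1, the fibrillar genes with the shortest main helix, had low levels: Col24a1 had 10.17 TPM in replicate 1 and 12.34 in replicate 2, and Col27a1, known from cartilage, had 20.76 and 17.93 TPM.

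Among network-forming collagens the beaded filament chains of type VI collagen, a pericellular filament of most connective tissues, were the most abundant, with sums of 743.0 TPM in replicate 1 and 756.8 in replicate 2. Col6a1 had 327.44 TPM in replicate 1 and 318.83 in replicate 2, Col6a2 had 196.24 and 184.69 TPM, and Col6a3 had 212.71 and 246.91 TPM. Col6a1 exceeded Col6a2 by 1.67 times in replicate 1 and 1.73 times in replicate 2. Col6a3 joins these chains in equal number, but its ratio to Col6a2 depended on the transcripts counted. It was 1.08 in replicate 1 and 1.34 in replicate 2 over all transcripts, against 0.420 and 0.522 over complete coding transcripts, since a model of 646 bases with a retained intron held 48.86% and 48.19% of the Col6a3 TPM. Of the 3 further chains, which lie next to each other on chromosome 9, Col6a6 had 6.34 TPM in replicate 1 and 6.09 in replicate 2. Col6a5 and Col6a4 in the same cluster were at most 0.18 TPM in either embryo.

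The type IV collagen genes, whose chains form the sheet of basement membranes, lie in head-to-head pairs, and the pairs differed widely in level. Col4a1 (chr8:11198423-11312826, minus strand) and Col4a2 (chr8:11312805-11449287, plus strand), which overlap by 22 bases at their starts, encode the chains of nearly all basement membranes. Col4a1 had 185.13 TPM in replicate 1 and 192.83 in replicate 2, and Col4a2 had 74.74 and 72.97 TPM. Col4a1 thus exceeded Col4a2 by 2.48 times in replicate 1 and 2.64 times in replicate 2, where the protein trimer holds a pair of Col4a1 chains to 1 Col4a2 chain. Col4a5 and Col4a6 lie on chromosome X with 1308 bases between them. Col4a5 had 11.52 TPM in replicate 1 and 10.93 in replicate 2, and Col4a6 had 1.49 and 1.40 TPM, ratios of 7.73 and 7.81 that came to 3.38 and 3.65 over complete coding transcripts. Col4a3 and Col4a4, the chains of the glomerular basement membrane, have 71 bases between them and were among the lowest members. Col4a3 had 0.10 TPM in replicate 1 and 0.18 in replicate 2, from 17.37 and 39.61 counts, and Col4a4 had 0.12 and 0.15 TPM, from 23 and 38 counts. The counts of Col4a3 are fractional, and it shares 563 exon bases with C430014B12Rik on the other strand. That gene held 14.99 counts in replicate 1 and 9.27 in replicate 2.

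The hexagonal collagens of type VIII, known from vessel walls and from below the corneal endothelium, had nearly equal TPM in both embryos. Col8a2 had 63.78 TPM in replicate 1 and 63.12 in replicate 2, and Col8a1 had 33.80 and 33.18 TPM, a ratio of 1.89 ± 0.0109. Col10a1, the hexagonal collagen of hypertrophic chondrocytes, had 3.40 TPM in replicate 1 and 4.91 in replicate 2. It shares 18 exon bases with Nt5dc1 on the other strand, which held 421.0 counts in replicate 1 and 405.0 in replicate 2, against 203.0 and 379.0 for Col10a1. Its TPM was 0.00702 of the level of Col2a1 in replicate 1 and 0.0172 in replicate 2. Col7a1, the anchoring fibril that ties the epidermis to the dermis, had 7.53 TPM in replicate 1 and 8.20 in replicate 2.

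FACIT genes summed to 846.9 TPM in replicate 1 and 686.4 in replicate 2, and all 9 reached 1 TPM in both. Col12a1, of tendon, ligament and periosteum, had the highest mean of the class, with 228.12 TPM in replicate 1 and 225.87 in replicate 2, although Col9a3 was above it in replicate 1. Over complete coding transcripts Col9a3 was above it in both embryos, with 196.61 TPM in replicate 1 and 109.26 in replicate 2, against 65.20 and 65.50 TPM for Col12a1. Col9a3, Col9a1 and Col9a2 encode type IX collagen, which decorates the type II fibrils of cartilage with 1 chain of each kind. Their levels were not equal. Col9a3 had 232.26 TPM in replicate 1 and 129.45 in replicate 2, Col9a1 had 95.39 and 62.33 TPM, and Col9a2 had 58.02 and 35.49 TPM. Per Col9a2 there was 4.0 times as much Col9a3 in replicate 1 and 3.65 times in replicate 2, and 1.64 and 1.76 times as much Col9a1. Over complete coding transcripts it was 3.48 and 3.19 times for Col9a3, and 1.69 and 1.81 times for Col9a1. Col9a3 shares 234 exon bases with Tcfl5 on the other strand and had fractional counts, but Tcfl5 held only 11.16 counts in replicate 1 and 35.60 in replicate 2, against 11149 and 8007 for Col9a3.

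Of the other FACITs, Col16a1 had 145.47 TPM in replicate 1 and 143.16 in replicate 2, and Col14a1, of fibrous connective tissue, had 73.77 and 74.73 TPM. Col22a1, known from tissue junctions such as those of muscle and tendon, had 7.29 TPM in replicate 1 and 10.64 in replicate 2. Col20a1 had 3.57 and 2.38 TPM, of which a partial model of 633 bases held 35.44% and 29.55%. Its exons share 79 bases with BX649560.1 on the same strand. That gene held 59 counts in replicate 1 and 83 in replicate 2, against 199 and 184 for Col20a1. Col19a1, which ends 9205 bases from the end of Col9a1 on chromosome 1, was the lowest FACIT with 3.03 TPM in replicate 1 and 2.33 in replicate 2.

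The 4 transmembrane collagens lay close together between 6 and 18 TPM. Col17a1, the hemidesmosome collagen of basal keratinocytes, had 17.70 TPM in replicate 1 and 16.41 in replicate 2, and Col23a1 had 16.23 and 15.35 TPM. Col25a1, known to be needed for motor axons to enter muscle, had 12.79 TPM in replicate 1 and 10.65 in replicate 2, and Col13a1, of the neuromuscular junction, had 6.11 and 6.62 TPM. Of the multiplexins Col18a1, a basement membrane collagen, had 77.85 TPM in replicate 1 and 59.11 in replicate 2. Col15a1 had 24.74 TPM in replicate 1 and 23.70 in replicate 2. Col26a1, which belongs to none of these classes, had 100.65 TPM in replicate 1 and 70.22 in replicate 2, and Col28a1 had 1.06 and 0.77 TPM.

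**Figure D2:**
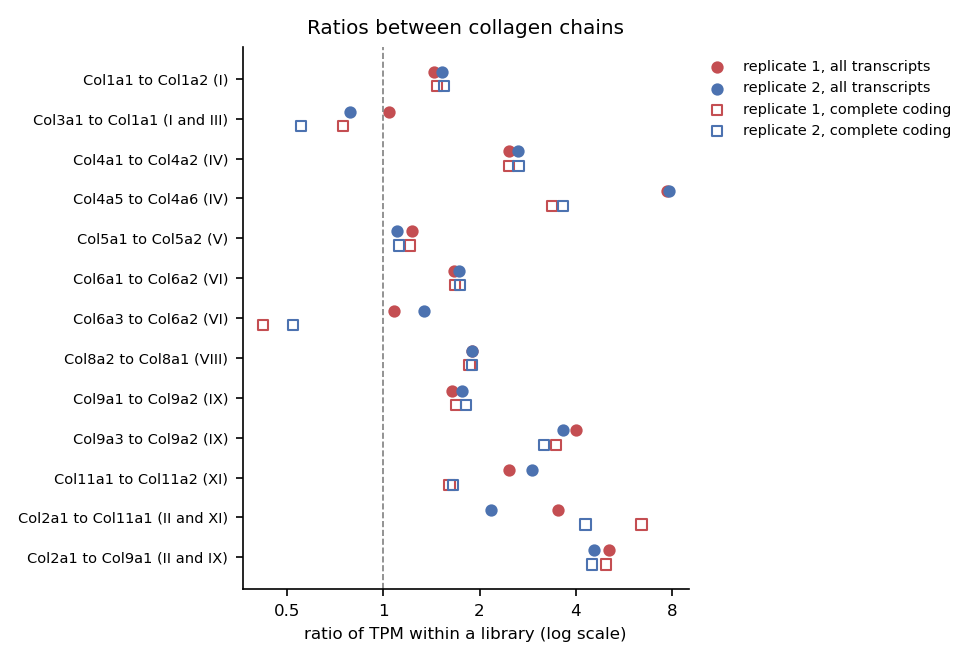
Ratio of TPM between chains within each library (log axis), from all transcripts of a gene (filled circles) and from complete coding transcripts alone (open squares), with the collagen type in brackets and a dashed line at a ratio of 1. The ratio of Col6a3 to Col6a2 lies above 1 in both embryos over all transcripts and at 0.420 and 0.522 over complete ones, while Col1a1 to Col1a2 and Col4a1 to Col4a2 differ little between the methods.

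The question that 2 replicates allow is how far the family differs between the embryos. Among the 35 collagen genes with a mean of 5 TPM or more, 4 were at least 1.5-fold higher in replicate 1 on the log2(TPM + 1) scale, where 1.27% of the 11438 genes compared were. They were Col2a1, Col9a1, Col9a2 and Col9a3, the genes of type II and type IX collagen. No collagen gene was 1.5-fold higher in replicate 2, where 1.21% of all genes compared were. The median gene itself was higher in replicate 1, by a log2 ratio of 0.148, and the SD of the log2 ratio over all genes compared was 0.276. The TPM total also holds the spike-ins, and the genes with a symbol summed to 926134 TPM in replicate 1 and 881737 in replicate 2. Without centring, the ratio of the median gene leans towards replicate 1, and the part of the spike-ins in that shift was not tested. The median over the 35 collagen genes was 0.050, or -0.098 relative to the median gene, and 9 of them lay above the median gene and 26 below it.

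Col9a3 had the highest ratio of the family, with a log2 ratio of 0.84 (0.69 relative to the median gene). For Col2a1 the log2 ratio was 0.76, for Col9a2 it was 0.69 and for Col9a1 it was 0.61, which relative to the median gene came to 0.62, 0.55 and 0.46. The ratios of counts as a share of each library's depth, another measure than TPM, were 1.70 for Col9a3 and 1.61 for Col2a1. For Col9a2 and Col9a1 they were 1.55 and 1.49. Their exact 95% binomial intervals were 1.65 to 1.75, 1.58 to 1.63, 1.47 to 1.64 and 1.43 to 1.54 in the same order. These intervals belong to the count ratios and not to the TPM ratios, and cover counting error and not the difference between animals. Relative to the median gene Col2a1 and Col9a3 remained past 1.5-fold in replicate 1, where 0.498% of all genes were. Col5a3 and Col22a1, with log2 ratios of -0.51 and -0.49, then passed it in replicate 2, where 2.03% of all genes were.

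Other cartilage collagens with a mean of 5 TPM or more differed less. Col11a2 had a log2 ratio of 0.30 and Col11a1 of 0.07, with Col27a1 at 0.20. Col10a1, under that mean and so not among the genes compared, went the other way. Its log2 ratio was -0.43, or -0.57 relative to the median gene. The ratio of Col2a1 to Col11a1 was 3.52 in replicate 1 and 2.18 in replicate 2 (6.42 and 4.29 over complete coding transcripts), while that of Col2a1 to Col9a1 was 5.08 and 4.57. Among the remaining members Col26a1 (0.51) and Col18a1 (0.39) were higher in replicate 1 without passing the rule. All 10 network-forming genes compared lay below the median gene, between -0.21 for Col6a3 and 0.09 for Col6a2.

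**Figure D3:**
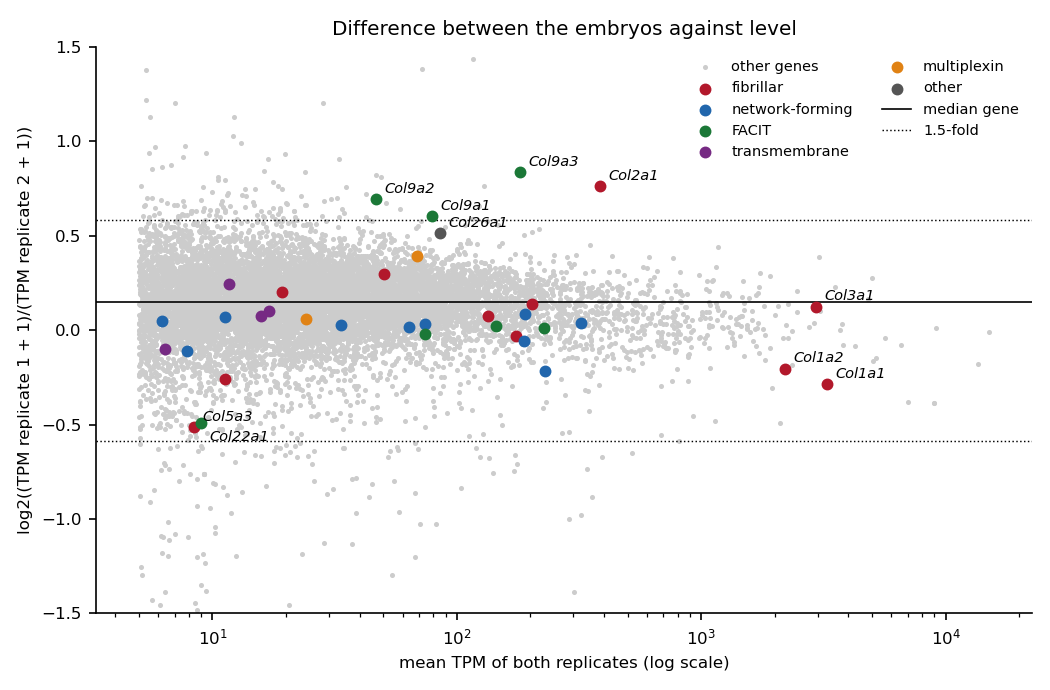
Log2 ratio of replicate 1 over replicate 2 on the log2(TPM + 1) scale against mean TPM (log axis) for all 11438 genes compared (grey) and the 35 collagen genes compared (coloured by class), with a solid line at the median gene (0.148) and dotted lines at 1.5-fold. Col2a1 and the 3 Col9 genes lie above the upper line, no collagen gene lies below the lower one, and 40 genes outside ±1.5 are not drawn.

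Markers of cartilage cells other than collagens also had higher values in replicate 1. All 11 listed chondrocyte genes, among them Sox9, Acan and Matn1, lay above the median gene with a median log2 ratio of 0.656, and their summed level was 472.4 TPM in replicate 1 and 277.0 in replicate 2. Of the 11, 6 passed 1.5-fold in replicate 1, where 1.27% of all genes compared did. The 9 osteoblast genes had a median of -0.441 and sums of 1066 TPM in replicate 1 and 1644 in replicate 2. Of these genes 3 passed 1.5-fold in replicate 2, where 1.21% of all genes compared did, and 1, Dmp1 (0.202), lay above the median gene. Col1a1 and Col1a2, which osteoblasts share with fibroblasts, were lower in replicate 1 as given above. Genes of the suprabasal epidermis had a median of -0.792, with 5 of 6 past 1.5-fold in replicate 2 and sums of 476.1 TPM in replicate 1 and 685.5 in replicate 2. Summed levels of tendon markers were 193.7 and 176.8 TPM, of endothelial markers 167.0 and 157.5 TPM, and of skeletal muscle markers 3319 and 4361 TPM. Basal epithelium summed to 621.0 TPM in replicate 1 and 650.3 in replicate 2, glia to 63.70 and 59.44 TPM, neurons to 202.4 and 165.6 TPM, blood to 28539 and 33186 TPM, and macrophages to 190.9 and 192.5 TPM. Of the lists given here by sums alone, skeletal muscle had 1 of 7 genes past 1.5-fold, in replicate 2, and the others had none. No gene of any of these lists was at 0 in both libraries. The part of cell makeup, dissection, exact age, mother, day or library in the difference between the embryos was not tested. With a single library per embryo, each from another mother and day, these cannot be told apart.

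The genes that fold, modify, cut, cross-link and bind collagens were all present. Of the 36 listed, all 36 reached 1 TPM in both embryos, where 63.9% of protein-coding genes did. Of the 33 with a mean of 5 TPM or more, 0 passed 1.5-fold in either direction, where 1.27% of all genes compared did in replicate 1 and 1.21% in replicate 2. The log2 ratios of the 33 ran from -0.29 to 0.39, with a median of 0.073. The highest were P4hb, a subunit of the proline hydroxylase, with 867.16 TPM in replicate 1 and 781.19 in replicate 2, and Serpinh1, the collagen chaperone HSP47, with 690.87 and 667.85 TPM. The lowest were Loxl4, of the lysyl oxidase family that cross-links collagen, with 2.50 TPM in replicate 1 and 3.15 in replicate 2, and Itga2, a subunit of a collagen-binding integrin, with 3.27 and 2.39 TPM.

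The alternative exon 2 of Col2a1 printed above was in a minority of its transcripts. The form with the exon had 138.07 TPM in replicate 1 and 79.01 in replicate 2, and the form without it had 335.72 and 199.84 TPM. The share with the exon was 29.1% in replicate 1 and 28.3% in replicate 2, a mean of 28.7% ± 0.571. The share thus differed by less than 1 percentage point between embryos in which the level of the gene differed by a factor of 1.70. These shares are the authors' estimates from reads spread over whole transcripts, with no junction counts behind them here.

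Col9a1 has a pair of starts 17577 bases apart, which are known for a long form with an extra amino-terminal domain in cartilage and a short form without it, as in the chick cornea. The long form starts at the upstream site (chr1:24177610) and the short one at the downstream site (chr1:24195187 in GENCODE and chr1:24195203 in RefSeq), within the gene. The RefSeq bases before each start are shown from the GRCm38.p6 build, as far as they lie outside every annotated Col9a1 exon, with capitals reserved for the motif CCAAT, for the TATA box sequence TATAAA and for the GC box sequence GGGCGG, on either strand. The stretches span chr1:24177360-24177609 and chr1:24194953-24195186 on the plus strand.
Col9a1 before the start at 24177610: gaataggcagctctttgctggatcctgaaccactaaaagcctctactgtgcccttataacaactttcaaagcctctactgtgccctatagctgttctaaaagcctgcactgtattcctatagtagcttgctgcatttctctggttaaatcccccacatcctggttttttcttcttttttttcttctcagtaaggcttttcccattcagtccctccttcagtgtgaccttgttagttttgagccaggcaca
Col9a1 before the start at 24195203: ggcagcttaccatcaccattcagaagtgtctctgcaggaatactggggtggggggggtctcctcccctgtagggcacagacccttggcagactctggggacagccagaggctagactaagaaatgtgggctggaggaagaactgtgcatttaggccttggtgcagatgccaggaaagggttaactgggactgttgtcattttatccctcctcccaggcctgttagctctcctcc
Neither printed stretch holds any of the 3 motifs whole. The full 250 bases before the downstream RefSeq start do hold a CCAAT, which crosses into the annotated exon and so is cut off here. The short form was the more abundant in both embryos. It had 74.13 TPM in replicate 1 and 54.22 in replicate 2, which was 77.71% and 86.99% of the gene's TPM. The long form had 21.02 TPM in replicate 1 and 7.64 in replicate 2, or 22.03% and 12.26%. Its estimated counts were 1548 in replicate 1 and 727.4 in replicate 2, against 4326 and 4090 for the short form, so the higher level of Col9a1 in replicate 1 was found in both forms and was larger in the long one.

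Col18a1 also has separate starts, and the short form of vascular and epithelial basement membranes is known to come from the upstream one. That form (start chr10:77166548, minus strand) held 93.0% of the gene's TPM in replicate 1 and 90.21% in replicate 2, with 72.40 and 53.32 TPM. The forms from the downstream starts had 1.25 TPM in replicate 1 and 1.63 in replicate 2 for one and 0.00 and 1.91 TPM for the other. The bases before the upstream start (GRCm38.p6, chr10:77166549-77166780, minus strand) hold 3 copies of GGGCGG and 1 of CCAAT, each in its reverse complement and in capitals.
Col18a1 before the start at 77166530: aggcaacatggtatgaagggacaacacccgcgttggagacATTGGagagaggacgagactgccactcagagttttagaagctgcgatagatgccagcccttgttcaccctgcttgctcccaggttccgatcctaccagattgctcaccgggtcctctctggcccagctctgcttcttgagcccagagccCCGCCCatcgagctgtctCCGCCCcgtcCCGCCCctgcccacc
In the 250 bases before a RefSeq start, GGGCGG was present on either strand in 22 of 38 windows of 35 collagen genes that had one (57.9%), against 42.6% of windows of protein-coding genes. CCAAT was in 13 of the 38 (34.2%), against 35.4%, and TATAAA in 5 (13.2%), against 11.6%. The windows of Col6a2 overlap each other in part and each counts as holding GGGCGG, and a match is a description of the window.

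Some further exons could be read from complete coding transcripts. In Col17a1 an exon of 111 bases (chr19:47650048-47650158, minus strand) was in 73.3% of transcripts in replicate 1 and 74.0% in replicate 2. Col25a1 has a complete form with 3 more short exons, which had 0.12 TPM in replicate 1 and 0.10 in replicate 2, against 8.83 and 7.67 TPM for the form without them. A model annotated for nonsense-mediated decay, with 3.44 TPM in replicate 1 and 2.43 in replicate 2, also holds these exons. Over all transcripts that hold or skip them, exons 14 and 18 were each in 31.0% in replicate 1 and 28.0% in replicate 2, and exon 34 was in 28.7% and 24.8%. In Col6a3 the complete form with the 600-base exon 6 (chr1:90813215-90813814, minus strand) had 0.00 TPM in replicate 1 and 0.14 in replicate 2, against 81.90 and 95.35 TPM for the main form without it. A partial model with that exon had 13.63 and 14.36 TPM. In Col13a1, known for many alternative exons, a form of 2935 bases had 1.93 TPM in replicate 1 and 1.74 in replicate 2, and a form of 3162 bases had 1.5 and 1.82 TPM. Of Col12a1 the long complete form of 11511 bases had 63.47 TPM in replicate 1 and 64.11 in replicate 2, against 1.73 and 1.39 TPM for one of 9953 bases. Col11a2 was mostly in its form of 6048 bases, with 79.72% of its TPM in replicate 1 and 81.16% in replicate 2. Col14a1 had 39.77 TPM in replicate 1 and 38.93 in replicate 2 in one complete form, whose length differs between the annotation releases, and 7.53 and 5.76 TPM in another. For Col5a1 the annotation holds a single complete transcript, so its alternatives could not be told apart.

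**Figure D4:**
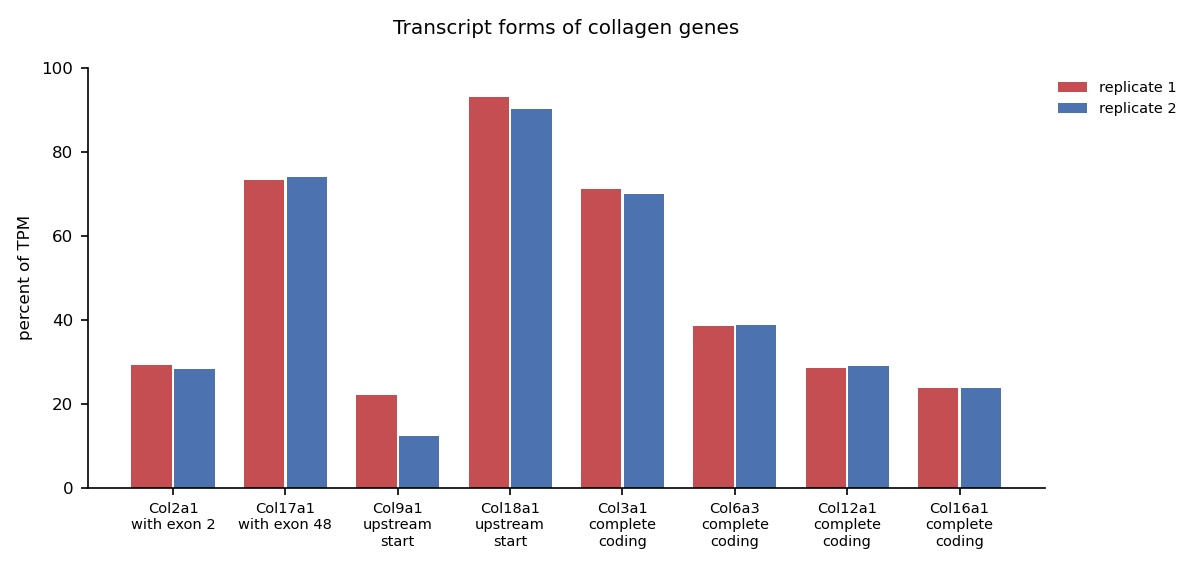
Percent of TPM in replicate 1 and replicate 2 for transcript forms of 7 further collagen genes and Col2a1: the share with an alternative exon among transcripts that hold or skip it (Col2a1 and Col17a1), the share from the upstream start (Col9a1 and Col18a1), and the share in complete coding transcripts (Col3a1, Col6a3, Col12a1 and Col16a1). The upstream start of Col9a1 stands at 22.03% and 12.26%, the widest gap between the embryos among the bars.

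Partial transcript models carried part of the levels above. Of the family's TPM, 86.1% in replicate 1 and 87.0% in replicate 2 was assigned to 73 complete coding transcripts of the 201 transcripts of its genes. For 25 genes at least 90% of the TPM was in such transcripts in both embryos, and for 6 genes less than 50% was. In 12 genes a single incomplete model held 25% or more in both embryos. Col12a1 was the strongest case among abundant genes, with a 1784-base model at 51.41% in replicate 1 and 54.9% in replicate 2, and Col16a1 had an 833-base model at 41.3% and 43.2%. Col15a1 had a further complete model of only 1755 bases near its end at 54.47% and 48.91%. In Col16a1 complete transcripts had 34.47 TPM in replicate 1 and 34.08 in replicate 2, well under the gene's value, as in Col12a1.

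The structural classes differ in the repeat itself, which the levels did not enter. The longest unbroken Gly-X-Y run encoded by the longest complete coding transcript spanned 216 to 344 triplets in the 11 fibrillar genes. It was 337 to 344 in 9 of them, 217 in Col27a1 and 216 in Col24a1. Runs reached 37 to 87 triplets in network-forming genes, 32 to 113 in FACITs, 40 to 56 in transmembrane collagens, 30 in both multiplexins, and 23 and 28 in Col26a1 and Col28a1. The 3 type IX chains share a longest run of 113 triplets, as does Col22a1. All runs of at least 5 triplets covered 77.2% of the residues of Col1a2 and 7.63% of those of Col12a1, which is largely made of other domains. Col4a1 had 16 such runs, the longest with 40 triplets, and Col4a2 had 22 with a longest run of 66.

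**Figure D5:**
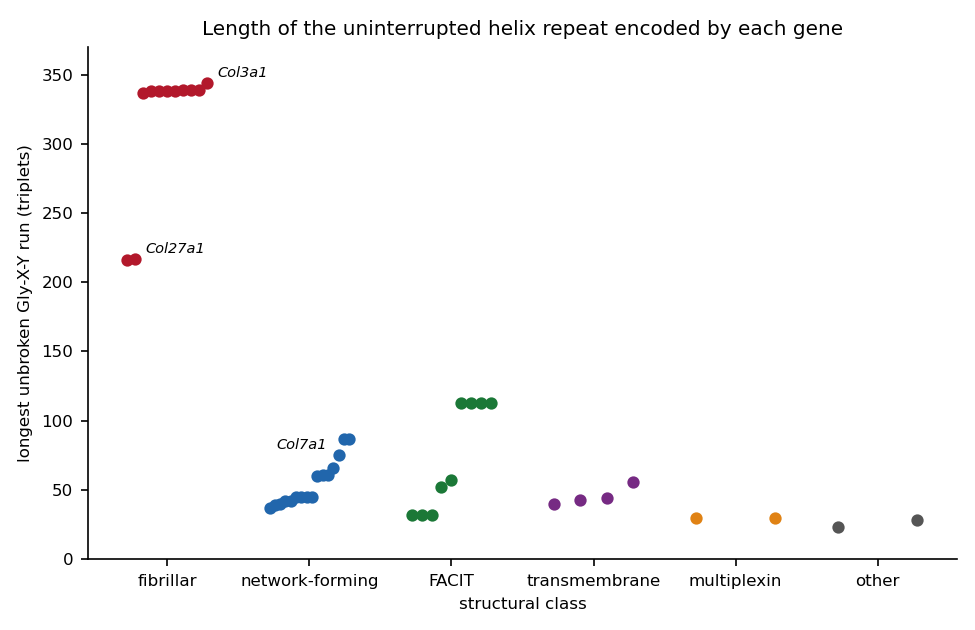
Longest unbroken run of Gly-X-Y triplets in the translated coding sequence of each of the 44 collagen genes (linear axis from 0), 1 point per gene, by structural class. Of the fibrillar genes 9 lie at 337 to 344 triplets and the other 2, Col24a1 and Col27a1, at 216 and 217, above every gene of the other classes.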

How the data were processed

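Total RNA libraries of 2 embryonic faces, both in 1 group, were made with a SMART-seq protocol after mirVana extraction, from RNA above a size limit and with spike-ins added, per the labels. The deposited tables hold expected counts, unscaled estimates by the authors of the reads from each gene or transcript, per the file headers. TPM and FPKM were computed by the authors per effective length, per the file headers, and percentages are the authors' share of a transcript in its gene's TPM. The build is mm10 with GENCODE M4, per the labels' companion text. No aligner, quantifier version or strand setting is named (not given in the sources used here), so reads of overlapping genes on opposite strands may not be told apart. A short incomplete model reaches a high TPM from few reads.

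GENCODE M21 (also mm10) gave symbols, exons and coding spans. It held 198 of the 201 member transcripts, 187 at the same length. Promoter windows came from RefSeq (GRCm38.p6), which matched 35 of 44 members. A gene was called expressed at 1 TPM. Ratios are replicate 1 over replicate 2 of TPM + 1, for genes with a mean of 5 TPM, called at 1.5-fold, which understates the change of low genes. The members and lists were chosen with earlier results of these data known. Every member could be named. Of the processing genes the 2 highest and 2 lowest were named. A complete transcript has an annotated start and stop. Runs of Gly-X-Y came from translated coding sequences. Expected counts were rounded for edgeR and DESeq2, which gave scaling factors alone. Depth was 30919488 and 37738872 expected counts in replicate 1 and replicate 2. The fold rule was run on simulated counts with no shift between the libraries and with changes of other sizes than 1.5-fold. That run does not show how the rule performs on these libraries. Versions were edgeR 4.0.16 and DESeq2 1.42.0 in R 4.3.3, and pandas 2.3.3, numpy 2.4.6, matplotlib 3.10.9 and scipy 1.17.1 in Python 3.11.15. Alternatives were other thresholds, pseudocounts, units, scalings and filters and each replicate left out. The restriction to complete coding transcripts was chosen after seeing the data.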

Additional observations from a re-analysis of the deposited data

How the results depend on the processing

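The count of expressed collagen genes stayed between 35 and 44 over the 7 alternatives run. The 4 genes higher in replicate 1 became 3 with FPKM (without Col9a1), 2 (Col2a1 and Col9a3) with edgeR TMM, DESeq2 size factors or centring on the median gene, and 0 with a fold of 2. The 0 genes higher in replicate 2 became 1 (Col5a3) with TMM or size factors, and 2 (Col5a3 and Col22a1) after centring. The median log2 ratio of the family, 0.050, was -0.020 with FPKM, -0.111 with TMM, -0.109 with DESeq2 size factors and -0.098 after centring, where the shift of the median gene changes with the scale by construction. Relative to the median gene it was -0.085 to -0.118, except without a filter on low values (0.044), where most genes are near 0. Of the 35 log2 ratios 19 kept their sign over 9 settings and 16, all of them close to 0, did not; the ratios of Col2a1 (0.616 to 0.766), Col9a1 (0.458 to 0.613), Col9a2 (0.546 to 0.708) and Col9a3 (0.691 to 0.843) stayed above 0. The family's share of 1.46% was 4.16% of counts, 1.28% of all Ensembl genes' TPM, and 1.40% to 1.52% with 1 replicate left out. The Col1a1 to Col1a2 ratio of 1.48 was 1.44 to 1.53 with 1 replicate left out. The Col2a1 exon 2 share of 28.7% was 29.8% from expected counts and 28.3% to 29.1% with 1 replicate left out. No paired analysis was possible because there is a single group. With n = 2 no result carries a test, genes under 1 TPM rest on few counts, and transcript shares rest on models rather than junctions.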
